A study of Mus musculus with 4 samples.

Results

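The genes described here are 10 that mark inhibitory interneurons of the mouse brain: Gad1, Gad2, Slc32a1, Pvalb, Sst, Vip, Npy, Calb2, Lhx6 and Cck. They were found by gene symbol, and all 10 were present, with 34 annotated transcripts, among 45215 genes and 128603 transcripts in the tables. Abundance was given as FPKM, fragments scaled to transcript length and to the size of the library, which is a level per length and so can be set side by side between genes.

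The libraries were made from brain RNA of wild-type mice of 4 groups. F1r and F1i are the hybrids of the 2 directions of a cross, written CAST/EiJ x C57BL/6 for F1r and C57BL/6 x CAST/EiJ for F1i, and the labels do not state which parent was the dam. CAST is CAST/EiJ, an inbred strain derived from wild Mus musculus castaneus, and B6 is C57BL/6, a standard laboratory strain. Each group was 1 library, for which left hemispheres of 5 mice were pooled, although the series calls the tissue whole brain; age and sex are not given in the labels used here. With 1 library per group there was no replicate check, no error and no test, so every difference below compares libraries made from pools, and a difference between animals or extractions cannot be told apart from one between strains.

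Inhibitory interneurons release GABA, which is made from glutamate by the decarboxylases encoded by Gad1 and Gad2 and loaded into vesicles by the transporter encoded by Slc32a1. In cortex and hippocampus these cells fall into classes marked by a calcium-binding protein or a neuropeptide, such as the fast-spiking parvalbumin cells that contact the soma and the somatostatin cells that contact distal dendrites. None of the markers belongs to interneurons alone: striatal projection neurons, cerebellar Purkinje cells and many thalamic and hypothalamic neurons also make GABA, cerebellar granule cells make calretinin, and Cck is abundant in cortical pyramidal cells. In RNA of a whole hemisphere, fewer cells of a type and less RNA per cell cannot be told apart.

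Total FPKM was 1942710 in F1r, 2347990 in F1i, 1857428 in CAST and 2357188 in B6. Depth, estimated from the smallest step of FPKM values, was 0.707 of that of B6 in F1r, 0.804 in F1i and 0.703 in CAST, so the B6 values carry the least counting error. Of the 140 genes in the panel and the companion lists, 0 were at 0 in any library, and pan-neuronal genes lay between 34.96 and 635 FPKM. Estimated fragments per member and library were fewest for Lhx6, with 248 in CAST, so its values are the least precise.

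The sequences shown here belong to Pvalb and Gad1, whose transcripts differ in their first exons. They describe where those transcripts start or part. The transcript values below are the deposited ones and were not computed from these sequences. Pvalb-202 starts 2163 bases upstream of Pvalb-201. The 300-base windows of RefSeq promoters on GRCm38.p6 around those starts (250 bases before, 50 after, minus strand of chromosome 15) are given with a match to TATTTAA in capitals.
Pvalb-202 window, chr15:78206351-78206650: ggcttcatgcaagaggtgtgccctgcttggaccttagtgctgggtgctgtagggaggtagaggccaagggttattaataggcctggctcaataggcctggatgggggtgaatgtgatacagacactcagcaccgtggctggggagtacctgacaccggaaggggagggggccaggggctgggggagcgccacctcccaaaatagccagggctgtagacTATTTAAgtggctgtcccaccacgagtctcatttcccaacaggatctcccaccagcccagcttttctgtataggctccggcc
Pvalb-201 window, chr15:78204188-78204487: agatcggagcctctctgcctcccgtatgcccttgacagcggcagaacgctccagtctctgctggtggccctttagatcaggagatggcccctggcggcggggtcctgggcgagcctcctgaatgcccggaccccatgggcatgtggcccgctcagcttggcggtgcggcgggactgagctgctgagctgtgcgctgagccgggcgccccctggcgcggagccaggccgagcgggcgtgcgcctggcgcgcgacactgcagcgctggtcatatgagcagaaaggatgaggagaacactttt
The first window holds TATTTAA at 32 bases before the start, and the second has no match. On both strands, TATTTAA was found in 4.51% of 32851 RefSeq promoter windows of this length; a match is a description of letters and not a bound site.
The transcripts of each pair run into shared sequence at the 30-base stretches below, from GENCODE M21. Capitals mark the 15 bases of each transcript before the shared part and lower case the first 15 of that part. In Pvalb-202 and Gad1-204 the change of case is the splice from exon 1 to exon 2, and in Pvalb-201 and Gad1-201 it lies within exon 1.
Pvalb-202 stretch: CTCTGCTCATCCAAGttgcaggatgtcgat
Pvalb-201 stretch: TGCCCGCTCAAACAGttgcaggatgtcgat
Gad1-204 stretch: GTACACTCACCAAAGgctctcccgtgccgg
Gad1-201 stretch: CTCTCCCTTCTTCAGgctctcccgtgccgg

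On the deposited scale no interneuron gene was as much as 1.5-fold apart in any of the 3 comparisons. After rescaling to the mean total, Vip was in CAST against B6 and Gad2 was in F1r against F1i. The difference between libraries is given as log2(FPKM + 1), a scale that understates the change of low genes, and a gene was counted as different past 1.5-fold, with a stricter count at 2-fold. In CAST against B6, 0 of 10 members passed 1.5-fold, where 12.1% of the 13768 genes with a mean of at least 1 FPKM did, and 0 passed 2-fold, where 5.12% did. Between the hybrids, F1r against F1i, 0 of 10 passed 1.5-fold or 2-fold, against 1.97% and 0.508% of genes. For the mean of the hybrids against the mean of the parents, 0 of 10 passed either fold, against 1.1% and 0.392%. With 10 genes, shares this small leave little room between 0 and the background, and nothing particular to the members is read from these counts.

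The ratio of the highest to the lowest library lay between 1.15 for Gad1 and 1.38 for Calb2. Its median over the members was 1.24, against 1.25 over the genes tested and 1.20 over genes with a mean of at least 5 FPKM. A ratio of 1.38 or more was seen in 31.3% of the genes tested and in 19.1% of those of at least 5 FPKM. CAST held the lowest value of 7 members, B6 of 2, F1i of 1 and F1r of 0, whereas 28.8% of all genes were lowest in CAST. This count depended on the scale: CAST was lowest for 1 member after rescaling to the mean total, where F1i was lowest for 6, and for 4 after scaling to pan-neuronal genes. B6 held the highest value of 5 members, F1r of 3, F1i of 1 and CAST of 1, against 29.99% of all genes highest in B6. This count depended on the scale too: after rescaling to the mean total, Gad1, Slc32a1 and Sst, highest in B6 before, were higher in CAST than in B6.

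On GRCm38, 4 of the genes lie on chromosome 2: Gad1 at chr2:70553072-70602014, Gad2 at chr2:22622205-22693874 and Slc32a1 at chr2:158610767-158615748 on the plus strand, and Lhx6 at chr2:36081953-36105408 on the minus strand. Pvalb (chr15:78191114-78206400), Sst (chr16:23889573-23890958), Calb2 (chr8:110137502-110168210) and Cck (chr9:121489824-121495694) are on the minus strand. Vip (chr10:5639218-5647617) and Npy (chr6:49822710-49829507) are on the plus strand. All 10 are annotated as protein coding.

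**Figure D1:**
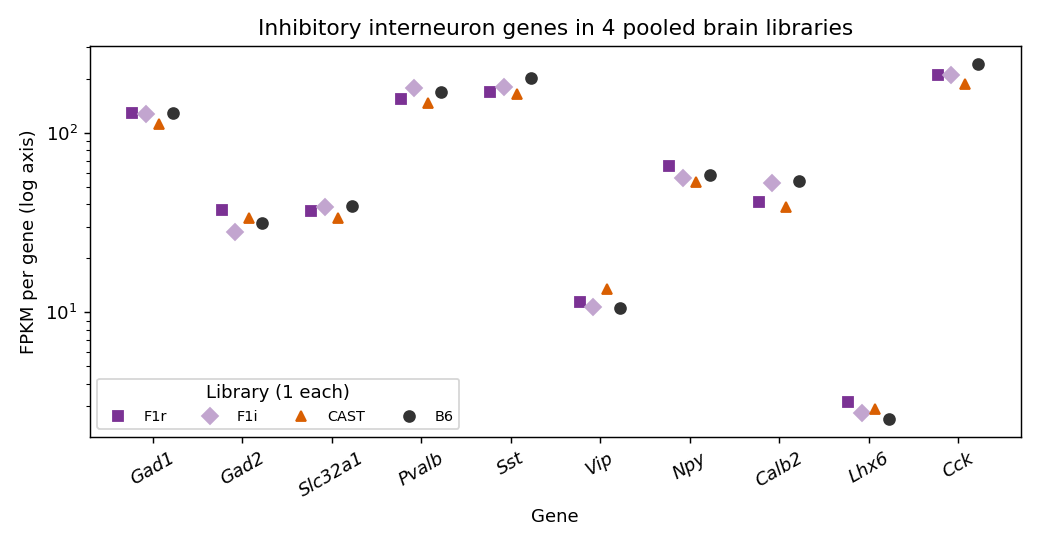
FPKM per gene (vertical axis, log scale) of the 10 interneuron genes in F1r, F1i, CAST and B6, 1 pooled library each, so no error bars can be drawn. CAST is the lowest library for 7 of the 10 genes on this scale (1 after rescaling to the mean total), and the ratio of highest to lowest runs from 1.15 for Gad1 to 1.38 for Calb2.

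The enzymes and the transporter of GABA come first. Gad1 encodes the decarboxylase found throughout the cell, and its level was 129 FPKM in F1r, 128 in F1i, 112 in CAST and 129.8 in B6. The hybrids and B6 lay close together and CAST was lowest, with a log2 difference of -0.20 between CAST and B6, a size met or exceeded by 48.9% of genes. Gad2, the decarboxylase of nerve terminals, was at 37.1 FPKM in F1r, 28.2 in F1i, 33.5 in CAST and 31.3 in B6. The parents differed by 0.09, while the hybrids stood apart, F1r highest and F1i lowest, with a log2 difference of 0.38 that 5.93% of genes equalled or passed. Slc32a1, the vesicular transporter, was at 36.7 FPKM in F1r, 38.9 in F1i, 33.5 in CAST and 39.1 in B6. Its order followed that of Gad1 in placing CAST lowest and B6 highest, and its log2 difference between CAST and B6 was -0.21. Rescaling to the mean total turned the differences between CAST and B6 to 0.14 for Gad1, 0.12 for Slc32a1 and 0.43 for Gad2. It turned the Gad2 difference between the hybrids to 0.65, past 1.5-fold.

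Ratios within a library do not depend on how libraries are scaled. Slc32a1 over Gad1 was 0.283 in F1r, 0.304 in F1i, 0.298 in CAST and 0.301 in B6, with a highest over lowest of 1.07, the smallest among the ratios computed. Gad1 over Gad2 was 3.49 in F1r, 4.53 in F1i, 3.36 in CAST and 4.14 in B6. F1r and CAST shared the lower values of this ratio and F1i and B6 the higher. Gad1 and Gad2 together summed to 167 FPKM in F1r, 156 in F1i, 146 in CAST and 161 in B6.

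Summed per gene, the genes of the calcium-binding proteins were higher in value in F1i and B6 than in F1r and CAST. Calb2, which encodes calretinin and had the widest range of the members, was at 41.2 FPKM in F1r, 52.9 in F1i, 38.9 in CAST and 53.7 in B6. F1i lay with B6 and F1r with CAST, giving log2 differences of -0.35 between F1r and F1i and -0.46 between CAST and B6. Differences as large were found in 7.17% and 18.3% of genes, and neither passed 1.5-fold. After rescaling to the mean total they were -0.09 and -0.12, and, less the median of all genes, -0.36 and -0.46. Over the sum of Gad1 and Gad2, Calb2 stood at 0.247 in F1r, 0.339 in F1i, 0.266 in CAST and 0.333 in B6. Pvalb encodes parvalbumin, and its level was 154 FPKM in F1r, 177 in F1i, 146 in CAST and 169.6 in B6. Summed over its transcripts, its libraries fell in the same pairs, with log2 differences of -0.20 for F1r against F1i and -0.22 for CAST against B6. Both signs turned, to 0.07 and 0.12, when the libraries were rescaled to the mean of their totals, but not relative to the median of all genes. The pairs did not hold for the main transcript, Pvalb-201, which was lowest in B6, at 138 FPKM beside 146 in CAST.

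Pcp2, a Purkinje cell gene, was also higher in value in F1i and B6, at 69.8 FPKM in F1r, 94.3 in F1i, 64.6 in CAST and 92.6 in B6. All 7 cerebellar genes tested were lower in value in F1r than in F1i, with a list median of -0.08 on the log2 scale and a summed level of 317 FPKM in F1r, 359 in F1i, 309 in CAST and 335 in B6. After rescaling to the mean total 6 of the 7 were above 0, but all 7 stayed below the median of all genes. In CAST against B6 the list did not follow Pcp2, with 3 genes above 0 and 4 below. The part that cerebellar cells have in the Calb2 and Pvalb values was not tested. Measured over 8718 protein-coding genes of at least 5 FPKM, the genes with the pattern most like Calb2 over the 4 libraries were Gpr37 and Aldh1a1, at root mean square distances of 0.0110 and 0.0182 on the log2 scale. Gpr37 was at 11.8 FPKM in F1r, 15.1 in F1i, 10.9 in CAST and 15.6 in B6.

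Striatal projection neurons also make GABA, and their markers differed between the hybrids in the direction of Gad2. All 7 striatal genes tested were higher in value in F1r than in F1i, with a list median of 0.31, and their summed level was 205 FPKM in F1r, 174 in F1i, 176 in CAST and 173 in B6. All 7 also lay above the median of all genes after rescaling. Their part in the Gad2 difference was not tested. The genes most like Gad2 by the same measure were Rap2c, Zbtb43 and Ptpn1, at distances of 0.0113, 0.0180 and 0.0191.

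The neuropeptides came next. Sst encodes somatostatin and was at 169 FPKM in F1r, 179 in F1i, 165 in CAST and 202 in B6. B6 was highest and CAST lowest, with a log2 difference of -0.30 between them, a size met in 33.6% of genes. That difference turned to 0.05 after rescaling to the mean total. Npy, neuropeptide Y, was at 65.3 FPKM in F1r, 56.0 in F1i, 53.3 in CAST and 57.9 in B6. F1r stood above the other libraries, and Npy over the sum of Gad1 and Gad2 was 0.392 in F1r, 0.359 in F1i, 0.365 in CAST and 0.36 in B6. Vip, vasoactive intestinal peptide, was at 11.4 FPKM in F1r, 10.8 in F1i, 13.4 in CAST and 10.5 in B6. On the deposited scale it was the 1 member highest in CAST. Vip over the sum of Gad1 and Gad2 was 0.0683 in F1r, 0.0691 in F1i, 0.0920 in CAST and 0.0655 in B6. Cck, cholecystokinin, was at 211 FPKM in F1r, 210.9 in F1i, 188 in CAST and 243 in B6. On the deposited scale the hybrids gave nearly the same value, between the parents, and CAST differed from B6 by -0.37. After rescaling to the mean total F1r differed from F1i by 0.28, and CAST from B6 by -0.03. Lhx6, a transcription factor of interneurons born in the medial ganglionic eminence, was the least abundant member, at 3.18 FPKM in F1r, 2.75 in F1i, 2.90 in CAST and 2.55 in B6. Its libraries differed by 0.13 for CAST against B6 and 0.16 for F1r against F1i on the log2 scale. In FPKM these differences were 0.348 and 0.427, and those of the short transcript Lhx6-206 alone 0.339 and 0.426. That transcript rests on few fragments, and the other Lhx6 transcripts differed in both directions. With transcripts weighted by their length, a setting chosen after seeing the data, both log2 differences were 0.03.

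**Figure D2:**
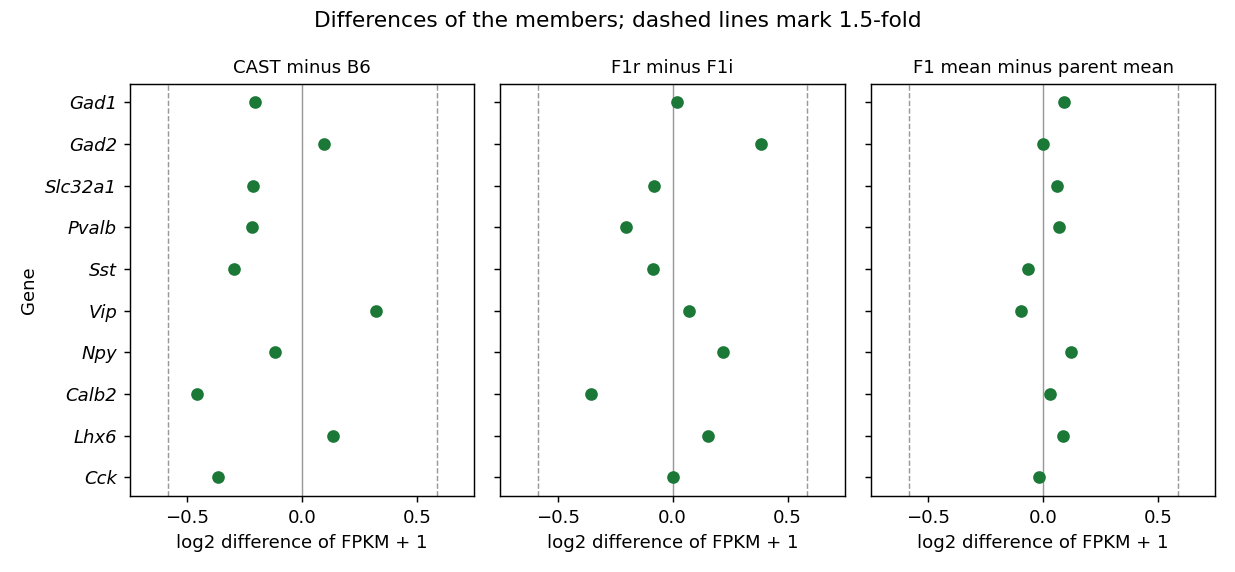
Differences of log2(FPKM + 1) (horizontal axis) for each of the 10 genes in 3 comparisons, CAST minus B6, F1r minus F1i and the mean of the F1 libraries minus the mean of the parents. No point passes 1.5-fold on the deposited scale drawn here. The points farthest from 0 are Calb2 at -0.46 in CAST minus B6 and Gad2 at 0.38 in F1r minus F1i.

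The median difference over the members was -0.21 in CAST against B6, with 3 above 0 and 7 below, beside a median of 0.04 over all genes. It was 0.01 in F1r against F1i, with 6 above 0 and 4 below, beside 0.03. For the F1 mean against the parent mean it was 0.04, with 6 above 0 and 4 below, and the members ran from -0.10 for Vip to 0.12 for Npy. The direction in CAST depended on the scale: when every library was rescaled to the mean total FPKM, the median of all genes moved to 0.34 and only Calb2 (-0.12) and Cck (-0.03) were below 0. Relative to the median of all genes, 7 of 10 members were lower in value in CAST with and without rescaling. Since no member was 1.5-fold apart between the parents on the deposited scale, the position of the hybrids between them was not computed. The median absolute difference of the members was 0.05 between F1i and B6, 0.13 between F1r and CAST, 0.12 between F1r and F1i and 0.22 between CAST and B6, and over all genes it was 0.12, 0.12, 0.10 and 0.20 in the same order.

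Transcripts gave the sharpest contrast of the panel, in Pvalb. Pvalb-202 was listed at 0 in F1r, at 0.00302 FPKM in F1i, at 0 in CAST and at 32.1 FPKM in B6, where it made 18.9% of the gene. Pvalb-201 was at 154 FPKM in F1r, 177 in F1i, 146 in CAST and 138 in B6. B6 alone held the upstream transcript above 0.01 FPKM, and both hybrids, which carry a B6 copy of the chromosome, were listed at or near 0, at the level of CAST and not between the parents. Of 65990 transcripts of protein-coding genes with 2 or more transcripts, 0.00152% (1, Pvalb-202 itself) reached 10 FPKM in B6 and stayed under 0.01 in the other 3 libraries, a rule chosen after its values were seen. The gene-level difference of -23.9 FPKM between CAST and B6 was the sum of -32.1 from Pvalb-202 and 8.16 from Pvalb-201, so that Pvalb-201 alone was higher in value in CAST, by 0.08 on the log2 scale.

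Both Pvalb transcripts hold the same coding exons, 330 coding bases, and share 889 bases, which leaves 64 bases of Pvalb-202 and 88 of Pvalb-201 that are their own. The first exon of Pvalb-202 lies at chr15:78206337-78206400 and that of Pvalb-201 at chr15:78204085-78204237, and nearly all of the bases of their own lie in these first exons. The value in B6 corresponds to an estimated 1249 fragments. How the shared reads were divided between the transcripts was not tested.

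Gad1-204 starts 8970 bases upstream of Gad1-201, spans chr2:70553072-70567233, and ends early in the gene, with 346 of its 398 bases shared with Gad1-201. It was at 20.1 FPKM in F1r, 24.9 in F1i, 12.3 in CAST and 26.6 in B6, a log2 difference of -1.05 between CAST and B6. Gad1-201, the full-length transcript, was at 102 FPKM in F1r, 96.9 in F1i, 93.6 in CAST and 97.4 in B6, and differed by -0.06. With transcripts weighted by their length, a setting chosen after seeing the data, Gad1 as a whole also differed by -0.06 and not -0.20. Of the -17.3 FPKM between CAST and B6 at the level of the gene, -14.3 came from Gad1-204, which rests on an estimated 201 fragments in F1r, 283 in F1i, 123 in CAST and 376 in B6. In all, 2 of 15 member transcripts of at least 1 FPKM passed 2-fold in CAST against B6, both lower in CAST, where 8.95% of 24651 transcripts did. Between F1r and F1i, 0 of 15 passed, against 2.76%.

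Lhx6 had the most transcripts, 9, and the most uneven shares. Lhx6-205 made 45.8% of the gene in F1r, 9.95% in F1i, 45.3% in CAST and 23.6% in B6. Lhx6-204 made 15.7% in F1r, 54.0% in F1i, 22.8% in CAST and 40.7% in B6. For Lhx6-205 the higher shares were those of F1r and CAST, and for Lhx6-204 those of F1i and B6. Lhx6-201 and Lhx6-202 did not pair the libraries this way. Lhx6-201 made 18.97% in F1r, 10.96% in F1i, 0.39% in CAST and 26.9% in B6, and Lhx6-202 made 0.04% in F1r, 19.99% in F1i, 9.99% in CAST and 0.03% in B6. Lhx6-206, of 825 bases, was listed at 0 in F1i and B6, and made 13.4% in F1r and 11.7% in CAST. Its values rest on only 10.01 estimated fragments in F1r and 7.93 in CAST, so no presence or absence is read from them. For the gene as a whole there were 284 estimated fragments in F1r, 315 in F1i, 248 in CAST and 342 in B6. Lhx6-205 and Lhx6-204 share 3093 bases. Shares of a transcript apart by at least 10 percentage points were found in 2 of 7 members with several transcripts in CAST against B6 (Lhx6 and Pvalb), beside 39.1% of 10664 genes. In F1r against F1i it was 1 of 7 (Lhx6), beside 28.1%, and in the F1 mean against the parent mean 0 of 7, beside 16.9%. Counts this close to or under the background are no result about the members.

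**Figure D3:**
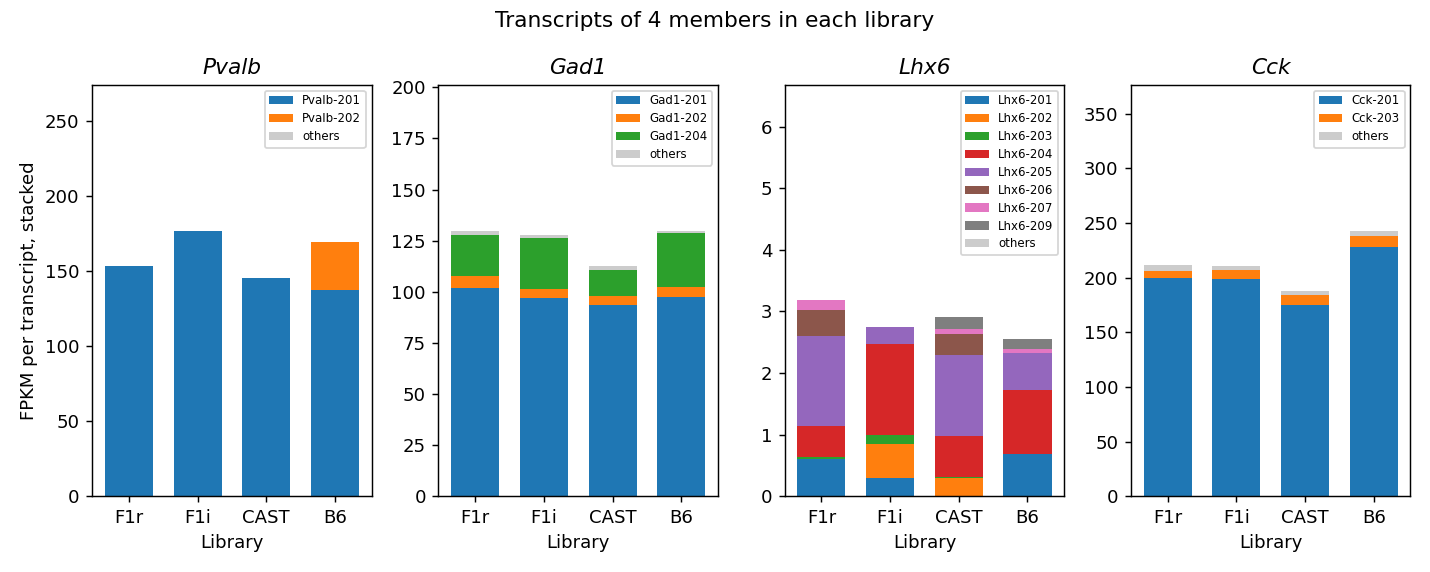
FPKM per transcript, stacked (vertical axis), in F1r, F1i, CAST and B6 for Pvalb, Gad1, Lhx6 and Cck, 1 pooled library per bar. Pvalb-202 is visible in B6 alone, Gad1-204 is smallest in CAST, and the Lhx6 bars change make-up between libraries at a level of about 3 FPKM.

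The remaining members were almost wholly 1 transcript, with at least 99.1% of Vip in Vip-201 and 99.7% of Calb2 in Calb2-201. Gad2-201 made 95.5% of Gad2 in F1r, 93.7% in F1i, 97.9% in CAST and 95.1% in B6. Cck-201 made between 93.1% and 94.6% of Cck, and Slc32a1, Sst and Npy have 1 transcript each in the tables. Of the 31-base words of Slc32a1, 24.2% also occur in other genes, and the gene that shares the most of them is the antisense gene Gm14205, which was at 0.157 FPKM in F1r and at 0 in F1i, CAST and B6. The library kit was strand-specific, per the labels, but whether reads were assigned by strand is not stated. Gad1 shares 4.01% of its words, Gad2 2.26%, Lhx6 2.12% and Vip 0.414%, and the other members share none.

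Promoters of 9 members were available as 12 windows. TATAAA was found in 3 of them, those of Gad1, Vip and 1 Lhx6 start, and in 13.6% of all windows. TATTTAA was found in 2, at Pvalb and Cck. TGACGTCA, the cyclic AMP response element, was found in 1, that of Sst, and in 1.79% of all windows. Both strands were searched.

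Companion genes of the pathway were compared by the same folds. Over all genes, 12.1% passed 1.5-fold in CAST against B6, 1.97% in F1r against F1i and 1.1% in the F1 mean against the parent mean. Counts near or under these shares are no result about a list. Of 9 genes of GABA uptake and turnover, 0 passed 1.5-fold in CAST against B6, and the list median was -0.19. Abat, which breaks GABA down, was at 59.9 FPKM in F1r, 63.4 in F1i, 53.3 in CAST and 65.7 in B6. On the deposited scale it was lowest in CAST, as were Gad1 and Slc32a1. Among 14 interneuron transcription factors, 1 passed, Sox6, required for the maturation of medial ganglionic eminence interneurons, at 5.90 FPKM in CAST and 3.52 in B6, and with median-ratio scaling 0 of 14 passed. Among 23 other interneuron markers, 2 passed, Reln at 25.99 FPKM in CAST and 15.8 in B6 and Adarb2 at 9.67 in CAST and 5.35 in B6, both higher in CAST. Reln, secreted by superficial interneurons, and Adarb2, a marker of caudal ganglionic eminence interneurons, differed by 0.68 and 0.75 on the log2 scale. None of the 10 receptors of the member peptides and neither subunit of the metabotropic GABA receptor passed. Gabbr1, 1 of those subunits, was at 193 FPKM in F1r, 193.4 in F1i, 179 in CAST and 184.6 in B6. In F1r against F1i, 0 genes of these 5 lists passed. In the F1 mean against the parent mean 1 did, Cort, the cortistatin gene, at 4.11 FPKM in F1r, 2.90 in F1i, 5.33 in CAST and 6.32 in B6.

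Markers of other cells were read beside these values, and beside the 12.1% (CAST against B6) and 1.97% (F1r against F1i) of all genes past 1.5-fold. The oligodendrocyte list had a median of -0.78 in CAST against B6, with 4 of 6 genes past 1.5-fold (2 of 6 after rescaling to the mean total), and a summed level of 1214 FPKM in CAST and 1977 in B6. Mobp, Mag and Cldn11, all myelin genes, were among them and lower in CAST. The microglia list had 1 gene above 0 and 4 below, with C1qa past 1.5-fold and lower, and the astrocyte list had 3 above and 3 below, with Aldh1l1 past 1.5-fold and lower. After rescaling to the mean total neither passed, while P2ry12 of microglia and Gja1 of astrocytes passed, both higher in CAST. Pan-neuronal genes had a median of -0.18 there, with 0 of 9 past 1.5-fold (1 with median-ratio scaling), beside the -0.21 of the interneuron genes, and excitatory neuron genes 0.14, with 1 of 8. Of 7 cerebellar genes, Gabra6 of granule cells was higher in CAST (41.3 FPKM in CAST and 20.01 in B6) and Car8 of Purkinje cells lower (17.1 in CAST and 43.7 in B6). Of 4 olfactory bulb genes, Cdhr1 was higher in CAST and the other 3 were below 0, with a list median of -0.30. Between the hybrids all 6 hypothalamic genes were below 0 in F1r against F1i, with a list median of -0.35, and below the median of all genes under each scaling. Of these, Oxt, the oxytocin gene, passed 1.5-fold, at 16.6 FPKM in F1r and 30.4 in F1i, but not after rescaling to the mean total. Their part in the interneuron values was not tested.

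**Figure D4:**
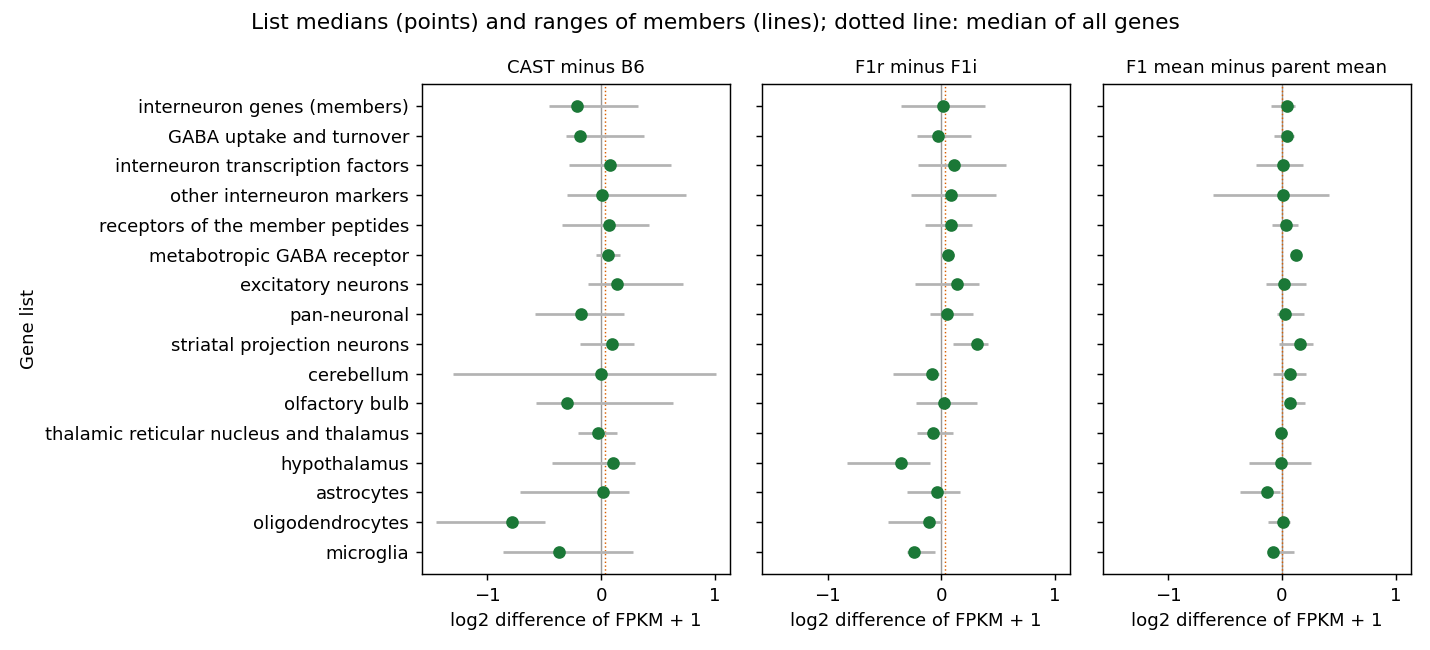
Median (point) and range (line) of the differences of log2(FPKM + 1) for the interneuron genes and the companion lists, in CAST minus B6, F1r minus F1i and the F1 mean minus the parent mean, with the median of all genes as a dotted line. The interneuron genes lie at -0.21, 0.01 and 0.04, and the oligodendrocyte list lies farthest from 0, at -0.78 in CAST minus B6.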

How the data were processed

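Each of the 4 groups (F1r, F1i, CAST and B6) gave 1 library, from brain RNA of 5 mice pooled. FPKM values per transcript were deposited by the authors, a separate table for every library. The submitters' processing notes name bcl2fastq 2.20, Trimmomatic 0.36, HISAT2, Cuffdiff, Cufflinks 2.2.1 and the build mm9. The loci match GRCm38 instead: 99.5% of transcripts were found in GENCODE M21, and 97.2% of those agreed in start and end. The strand setting, the handling of multi-mapping reads and any use of a CAST genome are not stated in the sources read here, and the last could bear on strain differences.

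Transcripts of 200 bases or more were summed per gene. Genes averaging 1 FPKM or more entered the comparisons, on the scale log2(FPKM + 1). Single libraries allow no test, so differences past 1.5-fold and 2-fold were counted. A mean of groups is a mean of log2 values. Shares are percentages of a gene's summed FPKM and were compared at 10 percentage points for transcripts of at least 10% in some library. Depth was estimated from the lowest FPKM steps of long genes with 1 transcript, and fragment numbers derived from it are approximate. Promoter windows are RefSeq's (GRCm38.p6) and exons GENCODE M21's. Companion genes are named where at least 1.5-fold apart, and otherwise from the 4 most abundant of a list; some genes that the rule names are left out of this text. The members and lists were chosen with earlier results of these data known. The steps were tested on simulated data, in Python 3.11.15 with numpy 2.4.6, pandas 2.3.3 and, for figures, matplotlib 3.10.9.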

Additional observations from a re-analysis of the deposited data

How the results depend on the processing

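The members' gene values were recomputed with median-ratio scaling, scaling to the pan-neuronal genes, rescaling to the mean total, a pseudocount of 0.1, no filter, a filter at 5 FPKM, single transcripts and all lengths. Shares were recomputed with transcripts of at least 500 bases, and the spread with median-ratio scaling. Weighting by transcript length, the log2 of group means and, for the companion lists and the lowest library, the 3 other scalings were chosen after seeing the data. Counts of transcripts past 2-fold and ratios within a library were not recomputed. Of the summary values, 63 kept their side and 2 moved, both with rescaling to the mean total: the count of members past 1.5-fold became 1 in CAST against B6 (Vip, 0.64) and 1 in F1r against F1i (Gad2, 0.65). Reln, Adarb2 and Cort kept their calls under all 3 scalings and Sox6 lost its own with median-ratio scaling. With rescaling to the mean total, Dlx5, Sp8, Cnr1, Crh and Sstr2 were among those that passed 1.5-fold in CAST against B6 too. That rescaling shifted the median of all genes to 0.34 and 0.27. The members' median less that of all genes in CAST against B6 lay between -0.25 and -0.14 over all settings. Of the members' log2 differences, 240 stayed within 0.1 of the main value and 34 moved further. Those of Pvalb in CAST against B6 included a change of sign, to 0.08, with the single transcript of highest mean. Some values near 0 changed sign within that margin. Cck in F1r against F1i went from 0.003 to -0.06 with scaling to the pan-neuronal genes. With rescaling to the mean total the same Cck difference moved past the margin, to 0.28. Changing the filter or using all lengths could not alter a member's log2 difference, so part of both tallies was fixed in advance. No paired analysis was possible because each group has 1 library and the labels carry no shared replicate numbers, and for the same reason no library could be left out. Depth limits Lhx6 and Vip most.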
